A study of Sus scrofa with 12 samples.

Results

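The insulin-like growth factor (IGF) system was followed through 10 genes in whole sow ovaries. These were the ligands IGF1 and IGF2, the binding proteins IGFBP2, IGFBP3, IGFBP4, IGFBP5 and IGFBP6, the receptors IGF1R and INSR, and the protease PAPPA. They were taken by symbol from a table of 29884 genes, and all 10 were listed and passed the filter of at least 1 FPKM in at least 3 libraries. FPKM is a read count divided by transcript length and by the reads of the library. Ovaries came from 3 sows with small litters (SLS, 8.48 ± 0.53 piglets per litter) and 3 sows with large litters (LLS, 16.19 ± 0.43 piglets per litter), where ± gives the SEM by the study's methods. In both groups the left ovary was taken 4 days after delivery number 4, from sows of 1 commercial herd, and neither breed nor treatment is given in the labels. The SLS ovaries were ZD2, ZD3 and ZD12 and the LLS ovaries ZD5, ZD7 and ZD8, with 1 ribosome-depleted RNA library each.

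IGF1 and IGF2 are peptide hormones that signal mainly through the receptor IGF1R, and IGF2 also acts through the insulin receptor INSR. Most IGF in tissue fluid is held by binding proteins, and PAPPA cuts IGFBP4 (and IGFBP5) to set the ligand free. In ovaries the system works beside the gonadotropins on granulosa, theca and luteal cells, and the balance of ligand, binding protein and protease differs between growing, regressing and luteinized follicles.

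The recovered depth was between 32272803 and 60903268 reads per library, with ZD8 the lowest. As ovaries, the libraries held genes of steroid-producing cells, but ZD8 stood apart from the other 5. The first principal component took 67.1% of the variance of 12260 tested genes, and ZD8 lay at 96.5 on it against -32.2 to 9.50 for the others. Over 7 luteal markers the summed level was 124 FPKM in ZD8 against 9167 to 12191 FPKM in the others, with ZD8 the lowest ovary for 6 of the 7. All 7 oocyte markers were highest in ZD8, with a summed level of 126 against 6.31 to 23.0 FPKM, and so were both theca markers, CYP17A1 and INSL3, with 415 against 9.31 to 74.4 FPKM. Of all tested genes, 44.6% were highest in ZD8 and 26.3% were lowest there. Group differences of the 10 genes, their mean levels and their ratios are therefore given with and without ZD8, and the part of tissue make-up in the values of ZD8 was not tested. In whole tissue, fewer cells of a type and less RNA per cell cannot be told apart.

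The 10 genes lie at 9 places of the Sscrofa11.1 genome, since IGFBP2 and IGFBP5 are neighbours. IGFBP2 (chromosome 15, 118822092 to 118850985) is read from the plus strand and IGFBP5 (118861816 to 118877787) from the minus strand. Their ends face each other across 10830 nt with 0 annotated genes between. IGFBP3 (chromosome 18, 50002921 to 50009425) faces IGFBP1 in the same way across 9061 nt, and IGFBP1 was listed at 0 FPKM in all 6 ovaries. IGF2 (chromosome 2, 1469183 to 1496417) lies 424 nt from INS, the insulin gene, which was also listed at 0. IGF1 and IGFBP6 lie on chromosome 5, from 81762027 to 81909253 and from 18352884 to 18357225. IGFBP4 is on chromosome 12 from 21966524 to 21980043. IGF1R and PAPPA are on chromosome 1, from 137383623 to 137691038 and from 256544496 to 256784813, and INSR is on chromosome 2 from 71797209 to 71939923.

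The annotated models behind the FPKM values differ in how much untranslated sequence they hold, which bears on any comparison of levels between genes. The model of IGFBP4 is 780 nt and all of it is coding, and that of IGFBP5 is 967 nt with 151 nt outside the coding part. By contrast, 94.3% of the 7282 nt of the longest IGF1 model and 64.9% of the 11557 nt of IGF1R are noncoding. Ratios of levels between genes therefore rest on these lengths, while comparisons of a gene between ovaries do not. IGF1 overlaps 2 long noncoding RNAs on the opposite strand, and IGF1R shares 843 nt with PGPEP1L on the opposite strand. Whether reads were counted by strand is not given in the sources used here.

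Upstream sequences are shown for INSR, IGFBP3 and PAPPA, since the first was highest and the others lowest in ZD8 and their models begin before the coding part. They are the 250 bases before the start of the longest RefSeq model (Sscrofa11.1, 5′ to 3′ on the gene's strand), and capitals mark GGGCGG or its reverse complement, the GC box bound by SP1 family factors. The INSR window is chr2:71796959-71797208 and lies on the plus strand, as do the IGFBP3 window, chr18:50002671-50002920, and the PAPPA window, chr1:256544246-256544495.
INSR: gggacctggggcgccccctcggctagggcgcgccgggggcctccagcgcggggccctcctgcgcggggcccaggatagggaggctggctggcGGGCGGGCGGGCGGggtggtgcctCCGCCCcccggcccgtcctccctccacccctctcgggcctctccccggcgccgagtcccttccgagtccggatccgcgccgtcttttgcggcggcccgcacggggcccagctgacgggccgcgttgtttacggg
IGFBP3: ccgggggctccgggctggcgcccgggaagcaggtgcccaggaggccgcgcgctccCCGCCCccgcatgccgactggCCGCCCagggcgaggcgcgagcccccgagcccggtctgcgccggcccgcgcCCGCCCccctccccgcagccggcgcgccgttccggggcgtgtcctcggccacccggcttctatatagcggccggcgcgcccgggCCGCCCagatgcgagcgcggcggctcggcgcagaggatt
PAPPA: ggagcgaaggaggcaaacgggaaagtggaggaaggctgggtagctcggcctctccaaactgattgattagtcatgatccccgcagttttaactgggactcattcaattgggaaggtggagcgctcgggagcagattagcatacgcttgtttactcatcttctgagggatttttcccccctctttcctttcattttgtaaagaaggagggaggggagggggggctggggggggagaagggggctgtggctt

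The INSR and IGFBP3 windows held 4 matches to GGGCGG each, of which 3 overlap in INSR, and PAPPA held 0. Bases G and C made up 80.0% of the INSR window, 82.0% of that of IGFBP3 and 54.0% of that of PAPPA, where the median of 20664 windows of coding genes was 57.2%. GGGCGG on either strand was in 8 of the 10 IGF system windows and in 43.0% of all 20664. CCAAT was in 4 of the 10 and in 31.4% of all. TATAAA and AAGGTCA, the core of the element bound by the steroidogenic factor NR5A1, were in 0 of the 10, and in 10.5% and 3.22% of all windows. No match overlapped one of another motif. The INSR, IGFBP3 and PAPPA windows were chosen by the place of ZD8, so that a link between matches and level was not tested.

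IGFBP4 and IGFBP5 had the highest mean levels of the system, and IGF1 had the lowest. Mean levels over the 6 ovaries (SD, n = 6) were 382 ± 135 FPKM for IGFBP4, 189 ± 281 for IGFBP5, 54.3 ± 43.3 for IGF2 and 47.3 ± 9.62 for IGFBP2. They were 45.4 ± 37.1 FPKM for IGFBP3, 30.7 ± 3.82 for IGF1R and 22.9 ± 10.2 for PAPPA. INSR followed with 19.7 ± 11.8, IGFBP6 with 14.1 ± 8.82 and IGF1 with 5.83 ± 2.82 FPKM. The IGFBP5 mean rested on ZD8, as its median was 60.4 FPKM. Without ZD8 the means were 420 ± 111 for IGFBP4, 75.8 ± 51.1 for IGFBP5, 53.3 ± 35.3 for IGFBP3, 45.7 ± 9.89 for IGFBP2 and 36.8 ± 6.36 for IGF2 (SD, n = 5). They were 29.3 ± 1.68 for IGF1R, 26.3 ± 6.76 for PAPPA, 15.1 ± 3.33 for INSR, 10.8 ± 4.05 for IGFBP6 and 6.29 ± 2.89 for IGF1, so that IGF2 came after the binding proteins other than IGFBP6. IGFBP4 was in the top percent of tested genes (percentile 99.1 by mean FPKM) and IGF1 at percentile 34.2. No neighbours in this order kept it in all 6 ovaries. IGFBP4 was above IGFBP5 in 5 of 6, with ZD8 the exception, and the mean log2 ratio of IGF2 to IGFBP2 was -0.02391 ± 0.75 (SD), with IGF2 the higher in 2 of 6. IGF1 was the lowest of the 10 genes in 5 of 6 ovaries.

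**Figure D1:**
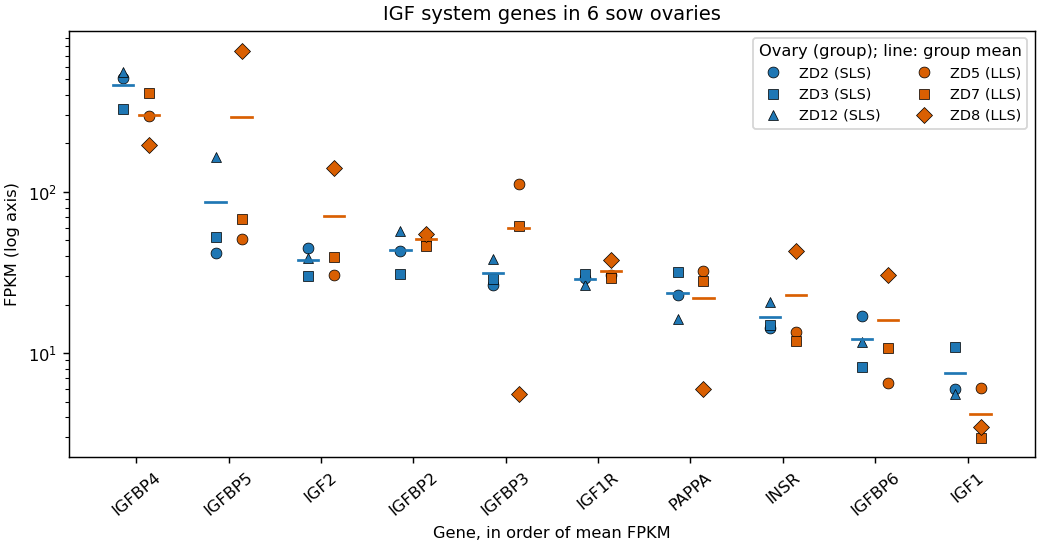
Level of each of the 10 genes (FPKM, log axis) in each ovary, with SLS in blue and LLS in orange, a symbol for each ovary and a line for each group mean. The LLS ovary ZD8 (orange diamond) is at the top for IGFBP5 (754 FPKM), IGF2, INSR, IGFBP6 and IGF1R, and at the bottom for IGFBP3 (5.54 FPKM), PAPPA and IGFBP4.

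Ligands were compared first, as IGF1 and IGF2 carry the signal. IGF1 was at 5.96, 10.95 and 5.54 FPKM in SLS and at 6.04, 2.99 and 3.50 FPKM in LLS, with ovaries here and below in the order ZD2, ZD3, ZD12 and ZD5, ZD7, ZD8. ZD3 was the highest and ZD7 the lowest ovary, and the groups overlapped only through ZD5, which exceeded ZD2 and ZD12. The group means were 7.48 ± 3.01 in SLS and 4.18 ± 1.64 in LLS (SD, n = 3 each). The log2 difference of LLS from SLS on the log2(FPKM + 1) scale was -0.70 (95% interval -1.52 to 0.12, adjusted p = 0.999 by limma, exact permutation p = 0.3). It was -0.62 without ZD8 and -0.43 without ZD3. Before adjustment, IGF1 had the smallest p of the 10 genes by limma.

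IGF2 was at 44.8, 29.99 and 39.1 FPKM in SLS and at 30.5, 39.5 and 142 FPKM in LLS. ZD8 was 3.63 times the median of the other 5 ovaries, and without it the LLS values lay inside the SLS range. LLS exceeded SLS by 0.56 on the log2 scale (SE 0.54, limma adjusted p = 0.999), which turned to -0.11 without ZD8. IGF2 made up between 73.3% and 97.6% of the summed level of both ligands, lowest in ZD3 and highest in ZD8. Behind the IGF2 values lay 7532 to 22243 reads per library and behind those of IGF1 823 to 4123 reads.

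Of the binding proteins, IGFBP5 and IGFBP3 varied most between ovaries, and in opposite directions in ZD8. IGFBP5, which binds matrix as well as IGF, was at 41.7, 52.6 and 166 FPKM in SLS and at 50.8, 68.2 and 754 FPKM in LLS. ZD8 was highest, 14.4 times the median of the other 5, and ZD12 of the SLS group came next. The groups overlapped, with a difference of 0.94 (95% interval -1.33 to 3.22, adjusted p = 0.999 by limma) that turned to -0.28 without ZD8. On recovered reads it was 1.48 by edgeR and 1.45 by DESeq2. The highest ovary had 18.1 times the level of the lowest, and the log2 range of 4.15 was wider than that of 99.0% of tested genes.

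IGFBP3, the main carrier of IGF in blood and made locally by endothelial and other cells, was at 26.3, 28.8 and 38.6 FPKM in SLS and at 111, 61.5 and 5.54 FPKM in LLS. The LLS group thus held the 2 highest values and the lowest. With all 6 ovaries the difference was 0.17 (SE 0.91), with an adjusted p of 0.999 from limma and an exact permutation p of 1. It was 1.07 by edgeR (adjusted p = 0.9999), 1.05 by DESeq2 (adjusted p = 0.9996) and 1.22 by limma with array weights (adjusted p = 0.299). Without ZD8 it was 1.40 (95% interval 0.71 to 2.08, unadjusted p = 0.0011 and adjusted p = 0.150 by limma), and 86.4 FPKM in the remaining LLS ovaries stood against 31.3 FPKM in SLS, which is 2.76-fold. This did not pass the adjusted threshold, and the exact permutation p was 0.1, the smallest that 2 ovaries against 3 allow. The difference turned to -0.66 when ZD5 was left out instead and to -0.23 when ZD7 was. The summed level of 6 endothelial markers was lowest in ZD8, with 121 against 252 to 379 FPKM, and 4 of the 6 were lowest there. ZD5, the highest for IGFBP3, had 262 FPKM, and their part in the values was not tested. Only 197 reads lay behind the IGFBP3 value of ZD8, against 1642 to 7058 in the others.

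IGFBP4, a binding protein that holds IGF away from its receptor, was at 507, 329 and 553 FPKM in SLS and at 295, 414 and 194 FPKM in LLS. ZD8 was lowest, and ZD7 exceeded ZD3, so that the groups overlapped. The means were 463 ± 118 in SLS and 301 ± 110 in LLS, with a difference of -0.65 (95% interval -1.72 to 0.42, adjusted p = 0.999 by limma, exact permutation p = 0.2). It stayed below 0 without ZD8, at -0.37.

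IGFBP2 varied least of the binding proteins. It was at 43.2, 30.8 and 57.3 FPKM in SLS and at 51.1, 46.2 and 55.0 FPKM in LLS, so that the LLS values lay within the SLS range. The highest IGFBP2 value was 1.86 times the lowest, while IGFBP5, its neighbour on chromosome 15, spanned 18.1-fold. IGFBP6, which prefers IGF2 over IGF1, was at 17.1, 8.14 and 11.7 FPKM in SLS and at 6.51, 10.8 and 30.5 FPKM in LLS. ZD8 was highest and ZD5 lowest, both in LLS. The differences were 0.25 for IGFBP2 (95% interval -0.44 to 0.94) and 0.14 for IGFBP6 (adjusted p = 0.999 for each by limma). As for IGF1R below, the IGFBP2 interval held no change of 2-fold or more. Without ZD8 the differences were 0.19 and -0.45, and without ZD3 they were 0.024 and -0.11.

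IGFBP4 was the largest part of the binding protein transcripts in 5 ovaries and IGFBP5 in ZD8. IGFBP4 took between 57.3% and 79.8% of the summed FPKM of the 5 binding proteins in those 5 ovaries and 18.7% in ZD8. IGFBP5 took between 6.55% and 20.0% in the 5 ovaries and 72.5% in ZD8. The share of IGFBP3 was 21.6% in ZD5 and 10.2% in ZD7, against 4.14% to 6.42% in SLS and 0.533% in ZD8. These shares depend on the short models of IGFBP4 and IGFBP5 given above.

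**Figure D2:**
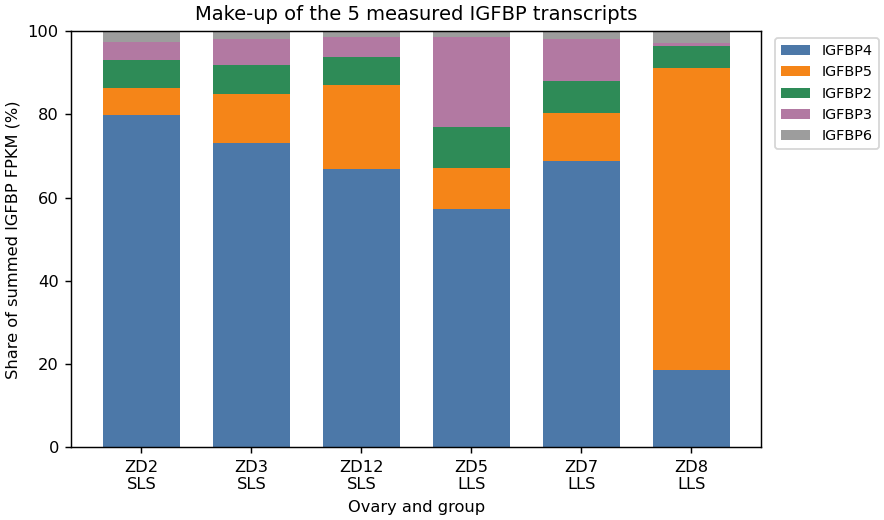
Stacked bars give the share (%) of each of the 5 measured binding proteins in their summed FPKM, for each ovary with its group below. IGFBP4 (blue) is the largest part in the 5 ovaries other than ZD8, where IGFBP5 (orange) takes 72.5%.

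Of the receptors, IGF1R was the steadiest gene of the system. It was at 29.1, 30.8 and 26.5 FPKM in SLS and at 30.4, 29.4 and 37.9 FPKM in LLS. Only 7.37% of tested genes had a narrower log2 range than its 0.50. The difference of 0.16 had a 95% interval of -0.41 to 0.73 (adjusted p = 0.999 by limma), so that a change of 2-fold or more lay outside it, and was 0.0519 without ZD8. ZD8 was highest in FPKM, after TPM rescaling and after quantile normalization, but not after median centring. The median gene of ZD8 lay 0.23 (log2) above the mean of the 6 library medians. By edgeR and DESeq2 the IGF1R difference was 0.11 and 0.080.

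INSR was at 14.4, 15.01 and 20.6 FPKM in SLS and at 13.4, 11.9 and 43.1 FPKM in LLS. ZD8 was 3.00 times the median of the other 5, and ZD5 and ZD7 were below all SLS ovaries. The difference of 0.21 (SE 0.47, limma adjusted p = 0.999) turned to -0.36 without ZD8. IGF1R was above INSR in all ovaries but ZD8, with log2 ratios of 0.35 to 1.24 there and -0.18 in ZD8. The INSR isoforms, which differ in their response to IGF2, share 1 value in the table and were not separated.

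PAPPA, the IGFBP4 protease, was at 22.9, 32.1 and 16.2 FPKM in SLS and at 32.1, 27.9 and 6.01 FPKM in LLS. ZD8 was lowest, and the median of the other 5 was 4.64 times its level. Its nearest value was that of ZD12, at 16.2 FPKM, and the other 4 ovaries lay between 22.9 and 32.1. The log2 difference was -0.34 (SE 0.58, limma adjusted p = 0.999) and turned to 0.37 without ZD8. On recovered reads it was -0.0465 by edgeR and -0.0658 by DESeq2.

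The comparison of LLS with SLS called 0 of the 10 genes. Genes were called where the absolute log2 difference exceeded 1 and the p adjusted by Benjamini-Hochberg was under 0.05, and limma called 0 of all 12260 tested genes (percent called 0). At an unadjusted p under 0.05 there were 0 of the 10 and 1.76% of all tested genes. The groups did not overlap for 0 of the 10 and for 5.12% of all. DESeq2 and edgeR on the recovered reads also called 0 of the 10, where DESeq2 called 21 genes and edgeR 0 genes in all. DESeq2 gave no p for IGFBP5. Of the 10 differences 7 were above 0 and 3 below, with a median of 0.17 against 0.0197 over all tested genes. Without ZD8, 4 were above 0 and 6 below, with a median of -0.19 against -0.0969. Over all tested genes 6446 differences were above 0 and 5814 below, and without ZD8 4099 were above and 7886 below.

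Without ZD8, 1 of the 10 had an unadjusted p under 0.05 by limma (IGFBP3), against 5.92% of all tested genes. Groups without overlap were found for 2 of the 10 (IGFBP3 higher and INSR lower in LLS), against 19% of all, and limma called 0 of the 10 and 0.167% of all. A count of 2 of 10 is near that background. The differences of IGF2, IGFBP5, IGFBP6, INSR and PAPPA each changed sign when ZD8 was left out, and those of IGF1, IGFBP2, IGFBP3, IGFBP4 and IGF1R did not.

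**Figure D3:**
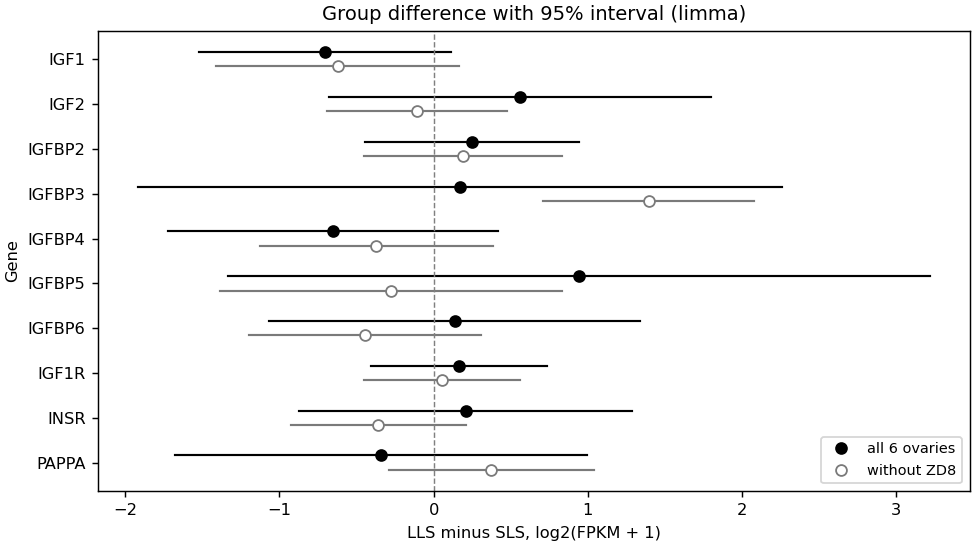
Difference of LLS from SLS on the log2(FPKM + 1) scale for each gene, with the 95% interval from limma, for all 6 ovaries (filled) and without ZD8 (open). All intervals include 0 except that of IGFBP3 without ZD8 (0.71 to 2.08), which did not pass the adjustment over all genes.

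The position of ZD8 was compared with its position over all genes. ZD8 was highest for 5 of the 10 (44.6% of all tested genes) and lowest for 3 of the 10 (26.3% of all). After median centring these counts were 4 and 4 (33.2% and 36.5% of all tested genes), and after quantile normalization 6 and 4 (37.3% and 32.4% of all). In FPKM, ZD8 lay at least 2-fold above the highest other ovary for 3 of the 10 (IGF2, IGFBP5 and INSR, 10.3% of all), and at least 2-fold below the lowest for 2 of the 10 (IGFBP3 and PAPPA, 7.53% of all). Of the remaining 5 ovaries, ZD12 was above ZD2, ZD3, ZD5 and ZD7 for 4 of the 10 (IGFBP2, IGFBP4, IGFBP5 and INSR, 39.6% of all) and below them for 2 of the 10 (IGF1R and PAPPA, 8.59% of all). For IGFBP2, IGFBP5, INSR and PAPPA, ZD12 thus lay on the same side of those 4 as ZD8, and for IGFBP4 and IGF1R on the opposite side. ZD12 was also second to ZD8 in the summed levels of oocyte markers (23.0 FPKM) and theca markers (74.4 FPKM), while its luteal markers (9167 FPKM) were near those of the others. The summed level of 7 granulosa markers, most of it INHA except in ZD8, was highest in ZD12 (857 FPKM) and lowest in ZD8 (152 FPKM). FSHR, AMH and FOXL2 of that list were highest in ZD8 and 1 of the 7, INHA, was lowest there, and the part of these cells was not tested.

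Ratios between members, taken on log2(FPKM + 1), overlapped between the groups when all 6 ovaries were used. The ratio of IGF2 to IGF1 was 2.24 ± 0.75 in SLS and 3.50 ± 1.42 in LLS (SD, n = 3 each, exact permutation p = 0.3, 0.933 after adjustment over 4 ratios). It was highest in ZD8, at 4.99, followed by ZD7 at 3.34, and lowest in ZD3 at 1.37. The summed binding proteins exceeded the summed ligands by 3.74 ± 0.39 in SLS and 3.47 ± 0.55 in LLS (exact permutation p = 0.6), and ZD8 had the smallest excess, 2.83. The ratio of PAPPA to IGFBP4 was -4.24 ± 0.86 in SLS and -3.93 ± 0.83 in LLS (exact permutation p = 0.7), and that of IGF1R to INSR differed by -0.0452 (exact permutation p = 1). With 3 ovaries against 3, this test cannot go below 0.1. Without ZD8 the difference of LLS from SLS fell from 1.26 to 0.52 for IGF2 to IGF1, turned from -0.28 to 0.0420 for binding proteins to ligands, and went from 0.31 to 0.75 for PAPPA to IGFBP4. That of IGF1R to INSR turned to 0.41, with 1.12 and 1.24 in the LLS ovaries ZD5 and ZD7 above 0.97, 0.99 and 0.35 in SLS (exact permutation p = 0.3). The groups thus did not overlap, as was the case for INSR itself, while IGF1R differed by 0.0519. Without ZD8, 19% of all tested genes did not overlap.

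Other genes of the pathway were read from 5 lists, of which the IGF2 RNA partners had 4 of 5 genes in the table and 0 that passed the filter. Of 12 further binding partners, 9 passed the filter and 0 were called. Their differences were above 0 for 2 and below for 7 (median -0.12), against 6446 above and 5814 below over all tested genes. IGFBP7, a secreted protein that binds IGF weakly, was the highest of these partners, at 240 to 390 FPKM in the 6 ovaries. IGF2R, the receptor that takes IGF2 up for breakdown, was at 44.4 to 78.6 FPKM in 5 ovaries and at 27.4 FPKM in ZD8. Of 9 binding protein proteases and their inhibitors, 8 passed and 0 were called (median -0.16). HTRA1, a secreted serine protease that can cut IGFBP5, was the highest, with 180 ± 46.6 FPKM in SLS and 126 ± 25.8 FPKM in LLS (difference -0.50, adjusted p = 0.999 by limma).

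Of 25 genes of receptor signalling, 24 passed and 0 were called. Their differences were above 0 for 14 and below for 10 (median 0.0831), which turned to 7 above and 17 below without ZD8. Over all tested genes 6446 were above 0 and 5814 below, which turned likewise to 4099 above and 7886 below without ZD8. ZD8 was highest for 12 of the 24 (44.6% of all tested genes) and lowest for 4 (26.3% of all). The receptor docking proteins IRS1 and IRS2 were at 49.2 and 24.6 FPKM in ZD8, against 9.33 to 19.3 and 3.09 to 7.40 FPKM in the other 5. PIK3R1, a regulatory subunit of PI3-kinase, had 32.6 FPKM in ZD8, and the other ovaries had 8.17 to 12.3 FPKM. AKT1 and RHEB were lowest in ZD8, with 41.5 against 41.8 to 71.1 FPKM and 70.6 against 93.5 to 109 FPKM.

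Of 7 genes of the growth hormone branch, which drives IGF1 in liver, 6 passed and 0 were called (median -0.13). STAT5A was the single gene of 47 tested list genes whose groups did not overlap, against 5.12% of all tested genes, with 20.7, 15.8 and 15.2 FPKM in SLS and 11.3, 13.3 and 14.2 FPKM in LLS. Its difference was -0.38 (SE 0.26, limma adjusted p = 0.999), and with each ovary left out it ran from -0.46 to -0.25, the latter without ZD2. Without ZD8 the groups did not overlap for 10 of the 47, against 19% of all tested genes, and 0 were called. The list medians were then -0.21 for binding partners, -0.14 for proteases, -0.11 for receptor signalling and -0.19 for the growth hormone branch, and that of all tested genes was -0.0969. The growth hormone receptor GHR was at 5.93 FPKM in ZD8 and at 0.984 to 1.94 FPKM in the other 5. SOCS3, a feedback inhibitor of JAK signalling, was lowest in ZD8 with 6.32 FPKM, where the others had 51.3 to 118 FPKM.

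**Figure D4:**
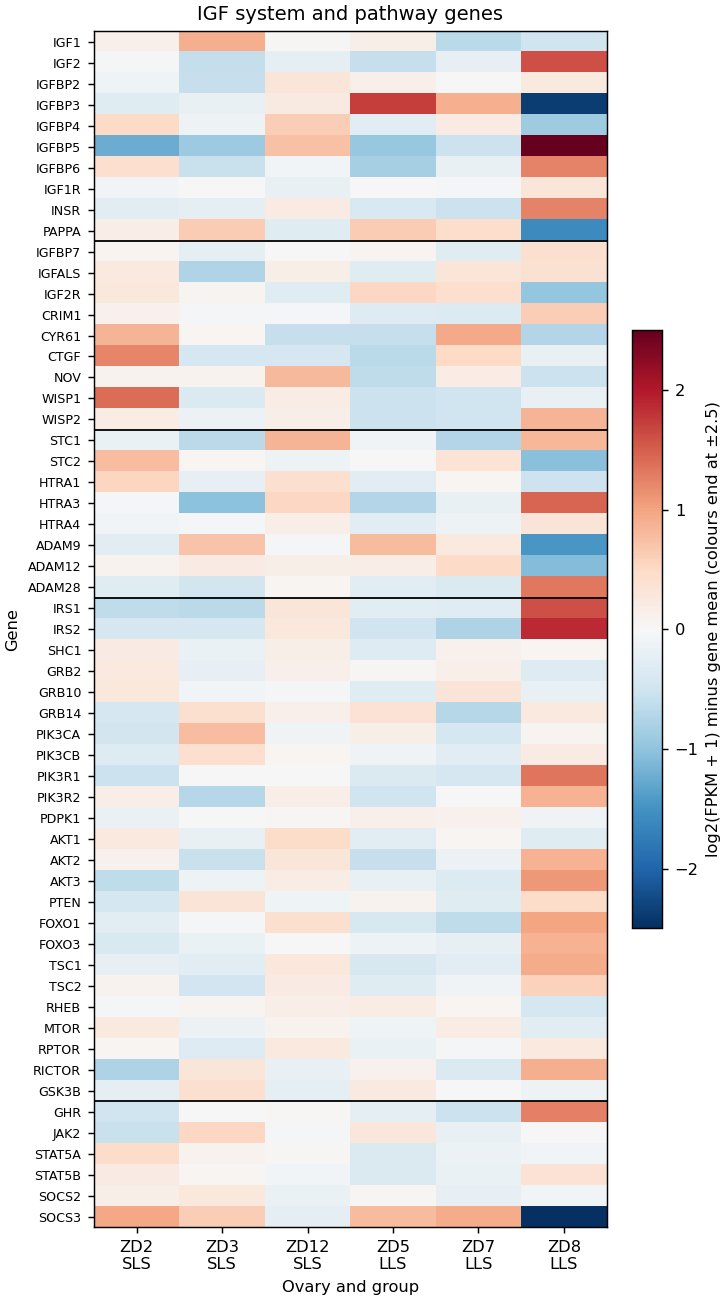
Colour gives log2(FPKM + 1) minus the gene's mean over the 6 ovaries, with blue below and red above, for the 10 IGF system genes (top block) and then the binding partners, proteases, receptor signalling genes and growth hormone branch that passed the filter. The ZD8 column holds the deepest colours, with IGFBP5 and IRS2 above and IGFBP3, PAPPA and SOCS3 below their means.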

How the data were processed

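RNA of the left ovary of 3 SLS and 3 LLS sows was depleted of ribosomal RNA and sequenced, so that each library stands for 1 sow. The authors trimmed the reads, mapped them with HISAT2 to Sscrofa11.1 and deposited FPKM values. The program that counted reads and its strand setting are not given in the sources used here. Whole reads were recovered from FPKM, the longest RefSeq transcript and 1 total per library for 23485 of 23564 genes above 0 (99.7%, tolerance 0.001 reads). The authors also deposited RPM values of miRNAs in the same ovaries, named TPM, mapped with BWA per the submitters' processing notes. That table was searched for miR-483, which lies in IGF2, and miR-675, each with 0 entries, so that no miRNA value is given.

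The study tested mRNA with DESeq2. As the deposited unit is FPKM, the main test was limma 3.58.1 (R 4.3.3) with a trended variance on log2(FPKM + 1), for 12260 genes with at least 1 FPKM in at least 3 libraries, at an adjusted p under 0.05 and an absolute log2 difference over 1. Single genes and ratios were compared by exact two-sided permutation tests. The named genes were the 10 members and, of each pathway list, the highest gene by mean FPKM and the gene with the smallest p whose groups did not overlap. For IGF1, IGF2 and IGFBP5, the 3 genes nearest in pattern were also named. Other list genes and markers named were chosen after their values were seen. The members and lists were chosen with earlier results of these data known. Alternatives were the pseudocount, the filter, 3 scalings, no variance trend, array weights, edgeR 4.0.16, DESeq2 1.42.0 and leaving out each ovary. The limma p-values set a group difference against the spread between these ovaries, estimated with information shared over the tested genes. Those of the permutation tests set it against all relabellings of the same ovaries.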

Additional observations from a re-analysis of the deposited data

How the results depend on the processing

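The count of genes called was 0 and became 13 with array weights, 21 by DESeq2 and 0 to 20 with each ovary left out, where only the fit without ZD8 gave any. None of the 10 IGF system genes was called in any of these fits, where DESeq2 gave no p for IGFBP5. With array weights the difference turned to -0.12 for IGF2, -0.45 for IGFBP5, -0.48 for IGFBP6, -0.38 for INSR and 0.48 for PAPPA, and to -0.0898 for IGFBP7, 0.021 for RHEB and 0.44 for SOCS3. That of RHEB was 0.0010 with quantile normalization. With each ovary left out, differences ran from -0.11 to 0.98 for IGF2, -0.66 to 1.40 for IGFBP3, -0.28 to 1.66 for IGFBP5, -0.45 to 0.59 for IGFBP6, -0.36 to 0.53 for INSR and -0.75 to 0.37 for PAPPA. They ran from -0.0664 to 0.28 for IGFBP7, -0.26 to 0.0525 for RHEB and -1.59 to 0.41 for SOCS3, which was -0.12 by edgeR and -0.15 by DESeq2. The differences of log2 ratios ran from 0.52 (without ZD8) to 1.93 (without ZD5, exact permutation p = 0.1, the smallest possible) for IGF2 to IGF1, -0.30 to 0.41 for IGF1R to INSR, -0.44 to 0.0420 for binding proteins to ligands, and -0.0765 to 0.77 for PAPPA to IGFBP4. IGF1 (-0.95 to -0.43), IGFBP4 (-0.92 to -0.37), IGFBP2 (0.0241 to 0.46) and IGF1R (0.0519 to 0.23) kept their direction when any ovary was left out. The smallest adjusted p of IGFBP3 over all these fits was 0.150, without ZD8. The cause of these changes was not tested. The member value with the fewest reads, IGFBP3 in ZD8, rests on 197, and each group holds 3 ovaries. The planned comparison of miR-483 was not run, as the table holds no such entry. No paired analysis was possible because the ovaries of the 2 groups share no number in the labels.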

Other observations

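Some genes of the pathway lists did not pass the filter on low values and were highest in ZD8. PAPPA2, a protease of IGFBP3 and IGFBP5, was at 4.04 FPKM in ZD8 and at 0.0269 to 0.650 FPKM in the other 5 ovaries, so that it went the other way from PAPPA. IGF2BP3, which binds IGF2 mRNA, had 1.92 FPKM in ZD8 and 0.0435 to 0.429 FPKM in the others, and the docking protein IRS4 was at 7.57 against 0.334 to 1.995 FPKM. In each of these genes ZD12 was second to ZD8, with 0.650, 0.429 and 1.995 FPKM. Among other such genes ZD12 was second in IGFBPL1, but ZD5 was second in PRLR and ZD7 in KAZALD1 and IGF2BP2. PAPPA2, IGF2BP3 and IRS4 were picked after their values were seen and carry no test.

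The genes with the pattern closest to that of a member were found by the root mean square difference of centred log2(FPKM + 1) over the 6 ovaries. For IGF2 these were LINGO1 (0.0875), RNF17 (0.119) and BANP (0.125), of which LINGO1 was at 0.557 to 1.17 FPKM in 5 ovaries and at 6.32 FPKM in ZD8. For IGFBP5, the member with the widest range, they were CPEB1 (0.230), LOC100510975 (0.231) and ACCSL (0.251), with CPEB1 at 4.37 FPKM in ZD12, at 17.8 FPKM in ZD8 and at 0.555 to 1.42 FPKM in the other 4. For IGF1 they were EXOC6 (0.190), PLOD2 (0.193) and MGST1 (0.199), all highest in ZD3. With 6 ovaries and ZD8 far from the rest, such likeness is a description of these libraries.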
